A study of Mus musculus with 12 samples.

Results

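Basal cells of the mouse mammary gland at day 2 of lactation were compared with basal cells at day 18.5 of pregnancy by RNA sequencing. The libraries were chosen by their labels, 2 from lactating and 2 from pregnant mice, and make up 4 of the 12 libraries of the series. All came from wild-type FVB/N females that received no treatment, with 2 mice per stage, and the cells were sorted by flow cytometry straight from the gland. The study also sorted luminal cells from the same stages and both cell types from virgin mice, which serve here as a yardstick. The labels name the sorted cells a basal cell population, and the gate is not described there.

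The mammary epithelium is a bilayer. Luminal cells line the lumen and make milk, and the basal layer around them consists mainly of myoepithelial cells, which contract when oxytocin reaches them and so push milk out of the alveoli. Basal cells also build and grip the basement membrane, and in the virgin gland they include cells that can regenerate the ducts. Between late pregnancy and early lactation, progesterone withdrawal and suckling start copious milk secretion in the luminal layer and bring the contractile layer into use.

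The 4 basal libraries held 20.02 M to 24.10 M counts, and 15969 genes had enough counts for a test. Keratins 5 and 14, smooth muscle actin (Acta2) and Trp63, which define basal cells, stood at far higher levels in every basal library than in the luminal libraries. Keratin 14, for instance, had 4889 and 4052 CPM (the share of a library's counts, scaled up and adjusted between libraries by the TMM method) in the lactating and 4202 and 5449 CPM in the pregnant basal libraries, against means of 13.3 and 243 CPM in the lactating and pregnant luminal libraries. Markers of other cell types were present at low levels, as described further on. The replicates of a stage were close, with Pearson correlations of 0.992 in lactating and 0.991 in pregnant libraries, computed on log2 CPM over genes, which are not independent of each other. The p-values measure the spread between these libraries, and since 2 libraries say little of their own group's spread, 1 estimate was shared by all 6 groups.

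Between the stages 5287 of the 15969 genes (33.1%) changed at an adjusted p below 0.05 in a quasi-likelihood test (edgeR, p-values adjusted by Benjamini-Hochberg). Of these, 2508 genes (15.7% of those tested) were higher and 2779 genes (17.4%) were lower in lactation. Changes of 2-fold or more were more often falls, with 1030 genes lower and 562 higher. The median log2 change over all genes tested was 0.01. The counts given for each gene list in basal cells below are to be set against the shares of 15.7% and 17.4%. Luminal counts are to be set against the luminal comparison, where 23.7% of all genes were higher and 24.6% lower. Here and below, in sorted tissue, fewer cells of a type and less RNA per cell cannot be told apart. Leaving out 1 library changed the number of calls, to 2735 without the first pregnant library and to 2806 without the second lactating library.

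Milk protein transcripts, which luminal cells make, were found in every basal library. The 14 milk protein genes took 0.543% and 0.534% of the counts in lactating basal libraries and 0.645% and 0.430% in pregnant ones. In the luminal libraries of the same stages they took 48.9% and 47.9% in lactation and 17.1% and 20% in pregnancy. The milk share of the luminal cells was thus much higher in lactation, while the shares in the basal libraries overlapped between the stages. Set against the luminal mean of the same stage, the basal milk shares correspond to 1.12% and 1.10% of a luminal profile in the lactating basal libraries and 3.48% and 2.32% in the pregnant ones.

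Most of the milk genes kept close to 1 ratio between basal and luminal libraries within a stage. The ratios are of plain shares of the counts, without the TMM adjustment. Beta-casein (Csn2) stood in lactating basal libraries at 1.03% of its luminal level, alpha-S1-casein (Csn1s1) at 1.06%, kappa-casein (Csn3) at 1.36%, whey acidic protein (Wap) at 1.26%, alpha-lactalbumin (Lalba) at 1.19% and Glycam1 at 1.17%. In pregnant libraries the same genes stood at 2.86%, 2.86%, 3.26%, 2.93%, 2.85% and 2.93%. Lysozyme 2 (Lyz2), which macrophages also make, departed most, at 223% in lactation and 264% in pregnancy. Lactoperoxidase (Lpo) also departed from the others, at 3.13% and 13.8%, as did Csn1s2b, at 1.73% and 5.49%, and lactoferrin (Ltf), at 0.689% and 3.72%. These ratios are descriptions across genes that share libraries, and how the transcripts came to be there was not tested.

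**Figure D1:**
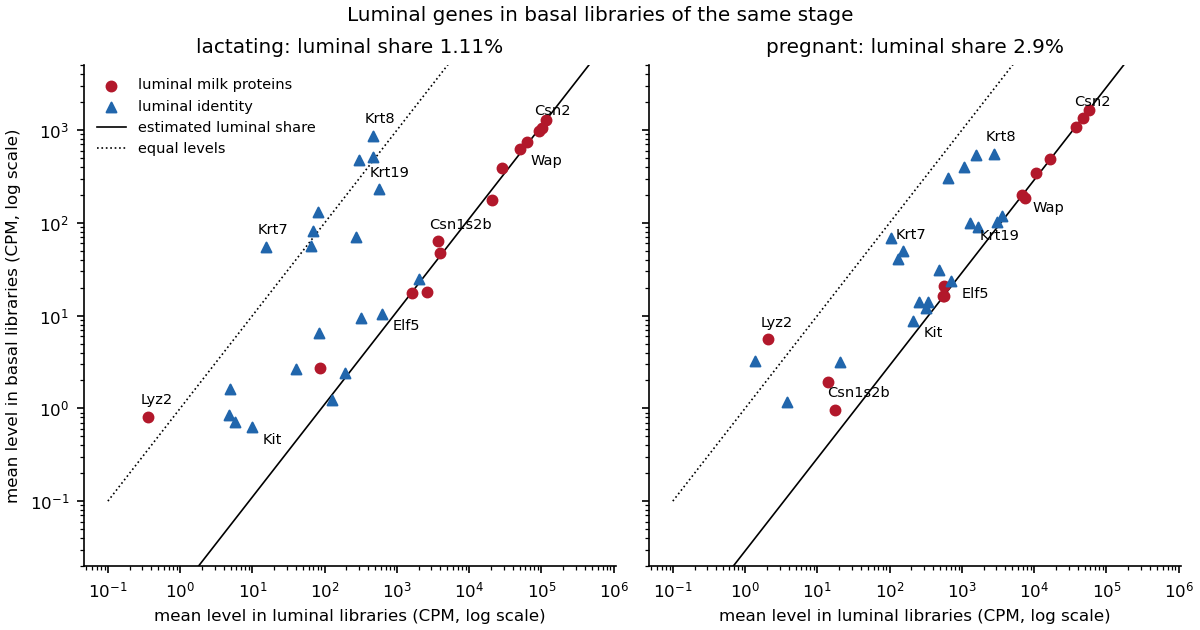
Mean level of each gene in luminal (horizontal, CPM, log axis) and basal libraries (vertical, CPM, log axis) in lactation (left) and pregnancy (right). CPM here is the plain share of the counts, without the TMM adjustment. The solid line marks the luminal share estimated from milk proteins, 1.11% in lactation and 2.9% in pregnancy, and the dotted line equal levels. Milk proteins (red circles) lie along the solid line in both panels, apart from lysozyme 2, lactoperoxidase and, less so, Csn1s2b in pregnancy, and several luminal identity genes (blue triangles), keratins 8 and 19 among them, lie far above it.

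A gene whose level in the basal libraries is no more than this share of its luminal level cannot be read as a basal change. For 107 of the 5287 changed genes, of which 11 were higher and 96 lower, the share would account for at least 50% of the level at the stage where the gene was higher. For 4952 of them it would account for less than 10%. Among the falls of the first kind were claudin 4 (Cldn4), a tight junction protein, with 2.56 and 2.02 CPM in lactating against 99.6 and 83.9 CPM in pregnant basal libraries, and the mucin Muc4, with 2 counts in lactating and 378 counts in pregnant libraries together. The Muc4 counts give a ratio of 162 (95% interval 44.6 to 1340, counting error only) of pregnant over lactating. Both also fell in luminal cells, by 3.16 for Cldn4 and by 2.50 for Muc4 on the log2 scale. Kit, Ceacam1 and the connexin Gjb2 were the other leading falls of this kind. With the share subtracted, Cldn4 (-5.30), Muc4 (-7.09) and Ceacam1 (-2.94) kept their calls, with a highest adjusted p of 0.00648 in edgeR for Muc4. They also kept them when the share was taken as the median over milk genes, with a highest adjusted p of 0.0156, again for Muc4. The subtraction takes the share as free of error. In pregnancy Cldn4 stood at 3.32% of its luminal level, where the milk genes Spp1 and Ltf stood at 2.52% and 3.72%. A kept call can therefore not be read as a basal change. Gjb2 no longer passed (-3.09, adjusted p = 0.0839 in edgeR), and Kit lost its call with the median (-2.11, adjusted p = 0.124). Without the first pregnant library Gjb2 fell by 2.70, against 3.36 with it.

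Of the rises of this kind, Csn1s2b, a casein, led with 64.0 and 55.9 CPM in lactating and 0.775 and 0.989 CPM in pregnant basal libraries. Csn1s2a has a similar sequence, so that their reads may be shared, which was not tested. In pregnant luminal libraries Csn1s2a averaged 56870 CPM and Csn1s2b 17.57 CPM, without the TMM adjustment. Csn1s2b also rose by 8.55 on the log2 scale in luminal cells. Its basal change of 6.09 ± 0.29 was 5.66 after the estimated luminal share was subtracted, and stayed called. Wap had 603 and 587 CPM in lactating and 154 and 209 CPM in pregnant basal libraries, and Lalba had 46.1 and 42.9 against 13.8 and 15.7 CPM. Both counted as higher in lactation as deposited, with log2 changes of 1.71 ± 0.30 and 1.59 ± 0.32 (SE). After the estimated luminal share was subtracted the changes were 1.16 for Wap (adjusted p = 0.504 in edgeR) and 0.73 for Lalba (adjusted p = 0.567). Csn2 had 1003 and 1000 CPM in lactating and 1479 and 967 CPM in pregnant basal libraries and did not pass the test. After the subtraction its fitted change was -10.55 (adjusted p = 0.0226), and 0.000 (adjusted p = 1) when the share was taken as the median over milk genes. Lao1 and the lipid droplet gene Cidea also counted as higher in lactation. After the subtraction Cidea changed sign (-7.05, or -6.84 with the median). The change of Lao1 was -7.06 (adjusted p = 0.0839), or 0.000 with the median. Fitted values this far from those as deposited, where the subtraction leaves almost no level, are no measure of size.

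Among 20 luminal identity genes, 2 were higher and 12 lower in lactating basal libraries, and the luminal share could supply 50% or more of 7 of the genes. The median change of the list was -1.10, against 0.01 for all genes, of which 15.7% were higher and 17.4% lower. With the share subtracted 5 were higher and 8 lower, or 5 and 7 when the share was taken as the median over milk genes. Claudin 7 (Cldn7), Cldn4, Elf5 and Wfdc18 were at 0.99% to 1.68% of their luminal levels in lactation (unadjusted shares), near the ratio of the milk proteins. The 2 that rose were keratins of simple epithelia. Keratin 19 (Krt19) had 449 and 449 CPM in lactating and 79.1 and 103 CPM in pregnant basal libraries, a log2 change of 2.30 ± 0.16 (edgeR adjusted p = 3.2e-06), while in luminal cells it fell by 1.24. Without the TMM adjustment its basal level was 158% of the luminal level in lactation and 7.79% in pregnancy. The TMM factors were 0.529 and 0.535 in lactating luminal and 1.036 and 1.087 in lactating basal libraries. With the adjustment the lactation ratio is therefore lower. Keratin 8 (Krt8) had 921 and 720 CPM in lactating and 488 and 530 CPM in pregnant basal libraries, a change of 0.69 ± 0.18. Its call was lost without the first lactating library (0.50, adjusted p = 0.113) and without the first pregnant library (0.63, adjusted p = 0.0942). Keratin 18 (Krt18), the usual partner of keratin 8, had 66.1 and 64.9 against 82.5 and 83.8 CPM and did not pass the test. E-cadherin (Cdh1) had 127 and 118 CPM in lactating and 264 and 290 CPM in pregnant basal libraries, and Epcam 252 and 183 against 497 and 475 CPM. Both fell, by 1.17 and 1.16, and for both the stages did not overlap.

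The genes named next changed most among those where the luminal share would supply less than 10% of the level. The fast skeletal muscle troponin I (Tnni2) had 99.1 and 66.4 CPM in lactating and 0.959 and 2.14 CPM in pregnant basal libraries. Both lactating libraries were far above both pregnant ones, and the log2 change was 5.75 ± 0.32 (edgeR adjusted p = 1e-06). The orphan receptor Mrgprf had 35.2 and 39.9 against 0.886 and 1.24 CPM, with a change of 5.15 ± 0.28. Cholecystokinin (Cck), a peptide hormone, had 11.9 and 18.6 against 0.664 and 1.24 CPM, a change of 4.01 ± 0.35. None of the 3 overlapped between the stages. Without the second pregnant library the change of Tnni2 was 6.42.

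Other large rises were those of thrombospondin 3 (Thbs3, 3.43 ± 0.27), the receptor phosphatase Ptprz1 (3.16 ± 0.35), the non-coding RNA H19 (3.10 ± 0.43) and Igfbp6, which binds insulin-like growth factor II (2.87 ± 0.19). The immune checkpoint ligand Vtcn1 rose by 2.66 ± 0.33 and the scaffold gene Sh3rf2 by 2.73 ± 0.44. Without the second pregnant library the changes were 3.92 for Ptprz1, 3.53 for Vtcn1 and 3.63 for Sh3rf2. H19 had 11.8 and 5.88 CPM in lactating and 1.22 and 0.824 CPM in pregnant libraries, with a change of 2.51 without the first lactating library. In luminal cells it fell by 6.42, from 7.70 and 12.8 CPM in pregnant to 0.229 and 0 CPM in lactating libraries. A luminal size fitted that near the floor is uncertain. Sync, Pdzd3 and Ccdc153 rose by 3.66, 3.33 and 3.17. Exons of Sync overlap those of Rbbp4 over 27.3% of their length, and Pdzd3 and Ccdc153 lie 5 bases apart on chromosome 9, so that the assignment of their reads is uncertain.

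Among the largest falls with a small luminal share was that of the cytokine leukaemia inhibitory factor (Lif). It had 13.4 and 8.87 CPM in lactating and 151 and 141 CPM in pregnant basal libraries, a log2 change of -3.71 ± 0.26 (edgeR adjusted p = 3.8e-06). Both lactating libraries lay far below both pregnant ones, and Lif was also lower in lactating luminal cells, by 2.92.

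Opcml, a cell adhesion gene, fell by 4.82 ± 0.76, and without single libraries its value lay between -5.87 and -3.51. The replication clamp partner Pclaf fell by 4.19 ± 0.42, the secreted WNT modulator Sfrp2 by 3.40 ± 0.28, Prrg4 by 3.30 ± 0.23 and the mitotic kinase gene Pbk by 3.22 ± 0.32. Smpdl3b, Iqgap3, Cgref1 and the cartilage collagen Col9a1 fell by 3.19, 3.07, 2.99 and 2.89. Without the first and the second lactating library in turn Pclaf changed by -6.02 and -3.42. In luminal cells 4 of these, Pclaf, Sfrp2, Pbk and Col9a1, rose instead.

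**Figure D2:**
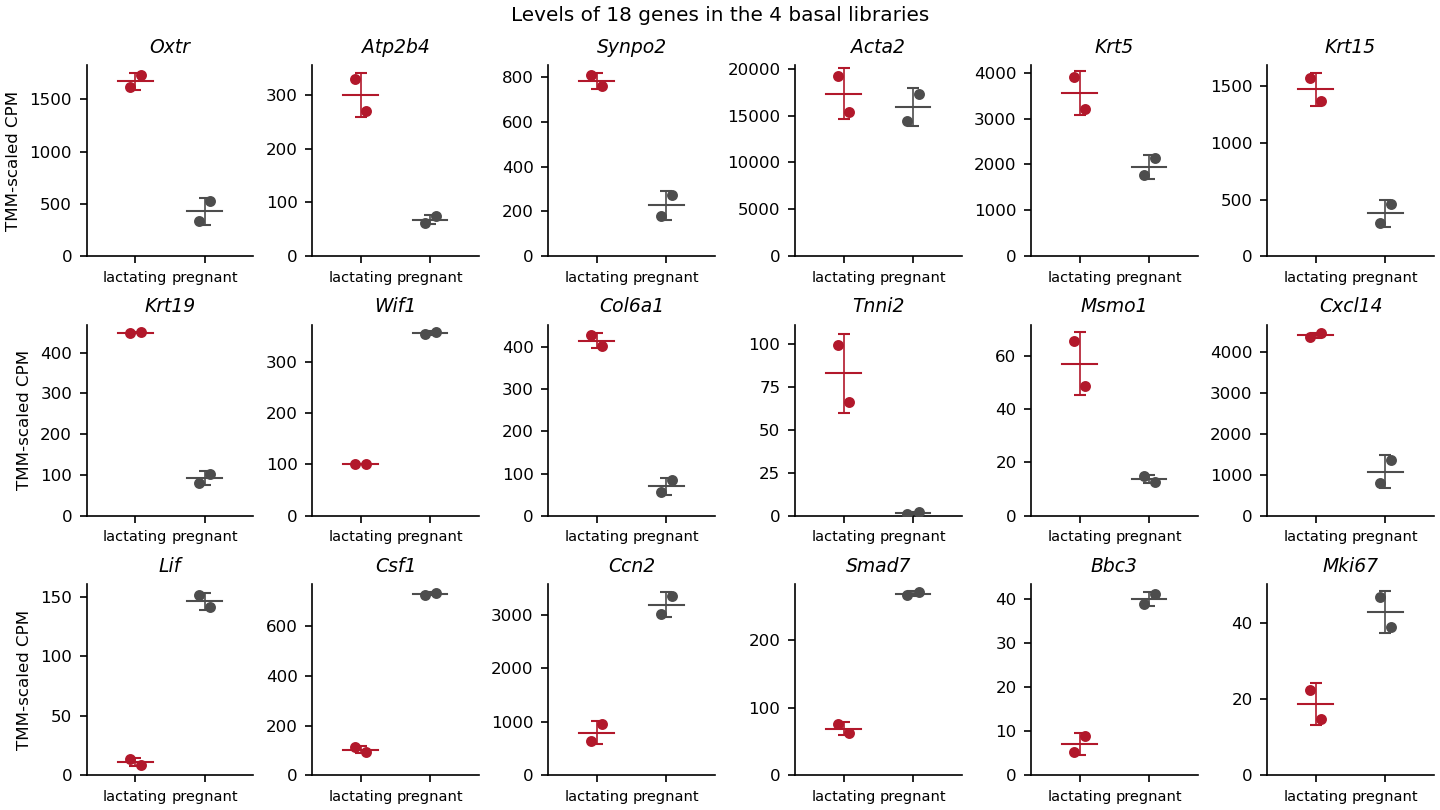
Levels of 18 genes in each of the 4 basal libraries (TMM-scaled CPM), lactating left and pregnant right in each panel. Points are libraries, the line is the mean and the bar the SD of 2. Tnni2 and Oxtr show the lactating libraries apart from and above the pregnant ones, Lif and Csf1 below them, and Acta2 shows both stages overlapping.

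Proliferation genes were lower in lactating basal cells. All 26 genes of a mitosis list fell, and 21 of 28 genes of a DNA replication list fell with none higher, where 17.4% of all genes tested fell. The medians were -2.05 for mitosis and -1.22 for DNA replication. The summed level of the mitosis genes was 100 and 79.8 CPM in lactating, 321 and 280 CPM in pregnant and 337 and 373 CPM in virgin basal libraries. The 2 lactating libraries lay below all 4 others.

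Cyclin-dependent kinase 1 (Cdk1), which drives entry into mitosis, had 2.42 and 2.16 CPM in lactating and 12.1 and 10.2 CPM in pregnant basal libraries, a change of -2.28 ± 0.27 (edgeR adjusted p = 1.1e-04). Cyclin B2 (Ccnb2), one of its partners, had 2.15 and 2.76 against 6.90 and 6.80 CPM, a change of -1.48 ± 0.24. The stages did not overlap for either gene. The proliferation marker Mki67 had 22.5 and 14.8 against 46.8 and 38.9 CPM, a change of -1.2 ± 0.20. The spindle checkpoint kinase Bub1, the kinase Aurkb and the motor Kif23 fell by 2.85, 2.97 and 2.82. In DNA replication, the helicase subunits Mcm2 and Mcm5 fell by 2.15 and 2.30, thymidine kinase (Tk1) by 2.14 and the ribonucleotide reductase subunit Rrm2 by 1.81. Bub1 and Aurkb had under 2 CPM in lactation, and without the first and the second lactating library in turn their changes were -3.90 and -2.26 for Bub1 and -4.51 and -2.25 for Aurkb.

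In luminal cells the same lists went the other way. Of the mitosis genes 24 were higher and none lower in lactating luminal cells (median 1.3), and of the DNA replication genes 19 were higher and none lower (median 0.78), where 23.7% of all genes tested were higher and 24.6% lower. The luminal change minus the basal change, tested as an interaction term in the same fit, passed for 26 of 26 mitosis and 24 of 28 DNA replication genes, against 36.2% of all genes. For Mki67 the luminal change was 2.32. The 2 cell types were sequenced in separate lanes, so cell type and lane cannot be told apart in the interaction, whereas the basal comparison lies within 1 lane.

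The start regions of 2 mitotic genes are shown because many cell cycle promoters carry CCAAT boxes, bound by NF-Y, and the cell cycle homology element, bound by a repressor complex in resting cells. Each run gives the 150 bases before the RefSeq start site in GRCm38.p6, read along the gene, with CCAAT (or its complement ATTGG) and TTTGAA in capitals. Cyclin B2 lies on the minus strand at chr9:70421555-70421704 and holds 3 CCAAT matches and 0 of TTTGAA. Cdk1 lies on the minus strand at chr10:69352913-69353062 and holds 2 of each, none overlapping.
Ccnb2: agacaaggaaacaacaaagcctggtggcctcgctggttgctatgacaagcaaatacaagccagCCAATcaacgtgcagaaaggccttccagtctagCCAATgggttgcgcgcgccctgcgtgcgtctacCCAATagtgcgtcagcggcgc
Cdk1: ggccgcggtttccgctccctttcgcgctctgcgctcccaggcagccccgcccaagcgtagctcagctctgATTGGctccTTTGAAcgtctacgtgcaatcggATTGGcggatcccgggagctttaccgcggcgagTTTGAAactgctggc

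In windows of 300 bases around the start (250 before and 50 after, both strands), 21 of the 26 mitosis genes had a RefSeq promoter. Of these, 18 held CCAAT, which occurs in 37.9% of all 27025 promoters, 16 held TTTGAA, against 18.1% of all, and 15 held both, against 7.1%. Of 22 DNA replication genes with a promoter, 13 held CCAAT and 3 held TTTGAA. A match describes the letters in the window and does not show that a factor binds there.

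**Figure D3:**
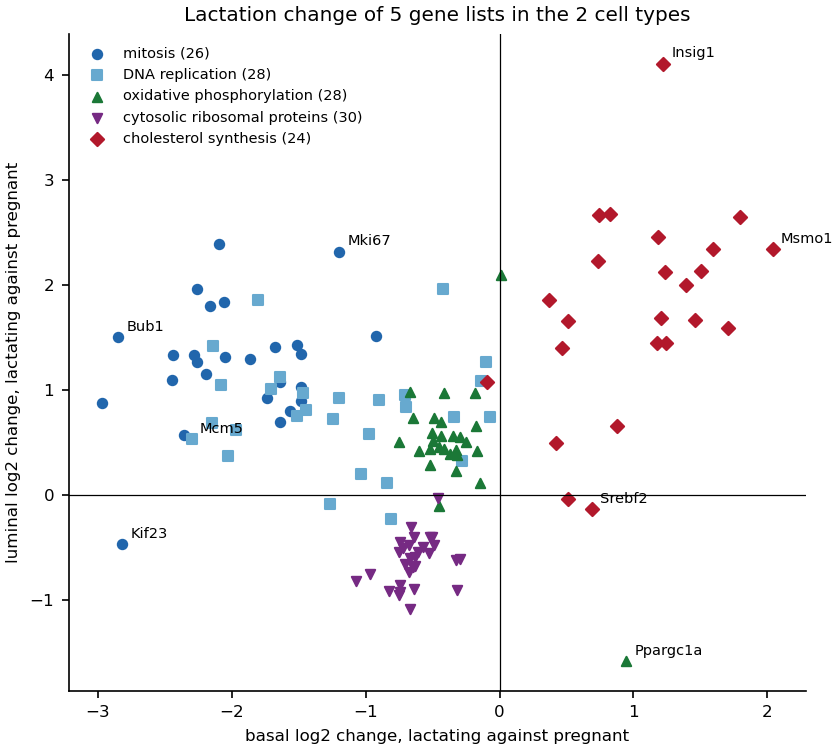
Log2 change in lactation in basal (horizontal) and luminal cells (vertical) for genes of 5 lists. Mitosis and DNA replication genes lie at upper left (lower in basal, higher in luminal cells), cholesterol synthesis genes at upper right, ribosomal protein genes at lower left, and oxidative phosphorylation genes at left with mostly positive luminal values.

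The oxytocin receptor (Oxtr, chromosome 6, 112473683 to 112491035 in GRCm38.p6), through which suckling triggers milk ejection, was higher in lactating basal cells. It had 1614 and 1730 CPM in lactating and 340 and 523 CPM in pregnant basal libraries, a log2 change of 1.95 ± 0.23 (edgeR adjusted p = 1.1e-04). Both lactating libraries were above both pregnant ones. In luminal cells Oxtr fell by 1.11, from a mean of 41.5 CPM in pregnant to 19.2 CPM in lactating libraries. The part of basal RNA in these luminal levels was not tested. Of 39 oxytocin and calcium signalling genes tested, 14 were higher and 4 lower in lactation (15.7% and 17.4% of all genes), with a median change of 0.15.

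The genes that rose with the receptor cover several steps of calcium signalling. The calcium pump of the plasma membrane Atp2b4 had 329 and 270 CPM in lactating and 61.5 and 74.0 CPM in pregnant libraries, a change of 2.15 ± 0.12. The myosin phosphatase target subunit Ppp1r12a had 779 and 848 against 282 and 359 CPM (1.34 ± 0.14), and the calcium-activated potassium channel Kcnma1 had 104 and 101 against 48.6 and 51.3 CPM (1.04 ± 0.14). Phospholipase C beta 1 (Plcb1), which releases calcium downstream of the receptor, rose by 1.11. The vasopressin receptor Avpr1a fell by 1.92 ± 0.44, a call lost without the first lactating library (-1.74, adjusted p = 0.052). Without the second lactating or the first pregnant library the rises numbered 9 and 8, and without the first lactating library the falls numbered 1.

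Of 25 genes of the contractile apparatus, 7 rose and none fell (15.7% and 17.4% of all genes), with a median of 0.39. Without the second lactating or the first pregnant library 4 and 3 rose, and 11 rose in a fit with a replicate block within each stage. Synaptopodin 2 (Synpo2), an actin-bundling protein, had 810 and 759 CPM in lactating and 181 and 273 CPM in pregnant libraries, a change of 1.79 ± 0.19. Leiomodin 1 (Lmod1), which nucleates actin filaments in smooth muscle, had 408 and 427 against 167 and 214 CPM, a change of 1.13 ± 0.24. Mrtfb, an actin-responsive coactivator of SRF, rose by 0.77 ± 0.12.

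The main filament genes did not pass the test. Acta2 had 19270 and 15420 CPM in lactating and 14460 and 17330 CPM in pregnant libraries (0.13 ± 0.23, adjusted p = 0.71), so the stages overlapped. Smooth muscle myosin (Myh11) had 13290 and 11760 against 8243 and 10510 CPM (0.42 ± 0.23, adjusted p = 0.19), without overlap. The summed level of the list was 79090 and 69050 CPM in lactating, 53540 and 66330 CPM in pregnant and 22430 and 20890 CPM in virgin basal libraries. In luminal cells 1 gene of the list was higher and 11 lower (23.7% and 24.6% of all genes there). Acta2 averaged 26.7 CPM in lactating and 36.7 CPM in pregnant luminal libraries and Synpo2 2.40 and 1.61 CPM, neither called there. Mrtfb, lower there, averaged 22.2 and 29.2 CPM. The part of basal RNA in the luminal libraries was not tested.

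Genes that mark basal identity moved in both directions, with 10 of 22 higher and 6 lower (15.7% and 17.4% of all genes). Their median was 0.44. Keratin 15 (Krt15) had 1575 and 1370 CPM in lactating and 294 and 464 CPM in pregnant libraries, a change of 1.96 ± 0.22 (edgeR adjusted p = 8.6e-05). Keratin 5 (Krt5) had 3901 and 3213 against 1768 and 2133 CPM, a change of 0.87 ± 0.15, while its partner keratin 14 (Krt14) did not pass (-0.11 ± 0.27). The peptidase Mme (CD10) had 850 and 776 against 119 and 247 CPM (2.15 ± 0.34). The lectin gene Lgals7 rose by 2.09 ± 0.28, the WNT pathway modulator Dkk3 by 1.41 ± 0.20 and neuregulin 1 (Nrg1), an ERBB ligand, by 0.91 ± 0.15. Without the second pregnant library the changes of Mme and Lgals7 were 2.77 and 2.71.

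Trp63, the transcription factor that maintains basal epithelium, had 366 and 430 CPM in lactating and 238 and 288 CPM in pregnant libraries (0.60 ± 0.17). That call was lost without the second lactating library (0.48, adjusted p = 0.136) and without the first pregnant one (0.46, adjusted p = 0.146). Of the genes of this list that fell, the WNT inhibitor Wif1 had 101 and 101 CPM in lactating and 353 and 358 CPM in pregnant libraries, a change of -1.82 ± 0.11. Lgr5, an R-spondin receptor, had 1.39 and 2.21 against 5.09 and 8.12 CPM (-1.87 ± 0.36), and averaged 103 CPM in virgin basal libraries. The transcription regulators Id4 and Snai2 fell by 1.01 and 0.74.

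Adhesion genes that anchor basal cells to the basement membrane were mostly higher or did not pass. Of 23 integrin and hemidesmosome genes 9 rose and 1 fell (15.7% and 17.4% of all genes), with a median of 0.25. In luminal cells 2 of them rose and 13 fell (23.7% and 24.6% of all genes there). Dystonin (Dst), which ties keratin filaments to hemidesmosomes, had 2532 and 2040 CPM in lactating and 623 and 1133 CPM in pregnant libraries, a change of 1.38 ± 0.24. Plectin (Plec) had 362 and 333 against 189 and 209 CPM (0.80 ± 0.14), and collagen XVII (Col17a1), a hemidesmosome collagen counted with the basal identity genes, had 1541 and 1483 against 610 and 825 CPM (1.08 ± 0.16). For all 3 the stages did not overlap. Integrin beta 4 (Itgb4), the hemidesmosome integrin, rose by 0.79 ± 0.17, but not without the first pregnant library (0.54, adjusted p = 0.0517). Integrin beta 8 (Itgb8), which releases active TGF-beta, rose by 0.82 ± 0.22, but not without the second lactating (0.58, adjusted p = 0.148) or the first pregnant library (0.62, adjusted p = 0.13). Integrins beta 1 (Itgb1) and alpha 6 (Itga6) stood at log2 changes of 0.01 ± 0.14 and -0.18 ± 0.15 and did not pass.

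In the basement membrane list 5 of 25 genes were higher and 6 lower, with a median of 0.15, shares near those of all genes (15.7% and 17.4%). The laminin 332 chain Lamb3 had 1011 and 1036 CPM in lactating and 468 and 620 CPM in pregnant libraries, a change of 0.91 ± 0.16. Perlecan (Hspg2) had 888 and 767 against 508 and 497 CPM (0.72 ± 0.14). The collagen IV chain Col4a1 had 2620 and 2403 against 4076 and 3706 CPM (-0.63 ± 0.15), and lost its call without the second lactating (-0.57, adjusted p = 0.0611) or the first pregnant library (-0.56, adjusted p = 0.0542). Col4a4 fell by 1.55 ± 0.29 and nephronectin (Npnt) by 1.26 ± 0.24. The lower genes numbered 2 without the second lactating and 3 without the first pregnant library, and 3 were higher without the second lactating library.

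Interstitial matrix genes also moved both ways, 10 of 42 higher and 14 lower, with 9 lower when the first lactating library was left out. Of all genes 15.7% were higher and 17.4% lower. Collagen VI chains led the rises. Col6a1 had 428 and 402 CPM in lactating and 56.0 and 83.7 CPM in pregnant basal libraries, a change of 2.57 ± 0.23 (edgeR adjusted p = 2e-05). Col6a2 had 303 and 277 against 43.2 and 66.4 CPM (2.40 ± 0.25). Tenascin C (Tnc) had 31.8 and 27.3 against 8.15 and 9.64 CPM (1.73 ± 0.20). Both lactating libraries lay above both pregnant ones in each case.

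Among the matrix genes that fell was a well-known target of TGF-beta, and what lowered it was not tested. Ccn2, a matricellular growth factor, had 638 and 950 CPM in lactating and 3021 and 3358 CPM in pregnant libraries, a change of -2.01 ± 0.24. Fibulin 2 (Fbln2), a basement membrane linker, had 23.5 and 28.7 against 143 and 107 CPM (-2.26 ± 0.20), and the protease Adamts18 had 28.2 and 40.9 against 178 and 86.2 CPM (-1.94 ± 0.29, and -1.32 without the first pregnant library). The stages did not overlap for any of these. Fibroblast markers, whose cells also make interstitial matrix, were measured in the same libraries. Of 11 such markers 1 rose (gelsolin, Gsn, 1.62 ± 0.33, which smooth muscle-like cells also use) and 3 fell (Col1a2, Mfap5 and Pdgfra). These counts stand beside 15.7% and 17.4% of all genes. The summed fibroblast level was 1006 and 1134 CPM in lactating and 794 and 1127 CPM in pregnant libraries. Gsn changed by 2.27 without the second pregnant library, and none of the 3 falls passed without the second lactating library, while 6 markers were lower in fits of the 6 or the 4 basal libraries alone and with no filter on low counts. The part of fibroblasts in the matrix changes was not tested.

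TGF-beta and BMP pathway genes were more often lower, with 11 of 30 lower and 4 higher, against 17.4% and 15.7% of all genes, and a median of -0.37. The falls included feedback inhibitors of the pathway. Smad7 had 75.6 and 61.8 CPM in lactating and 266 and 271 CPM in pregnant basal libraries, a change of -1.97 ± 0.15 (edgeR adjusted p = 8.2e-06). The SMAD corepressor Skil had 139 and 121 against 492 and 471 CPM (-1.88 ± 0.14), and the activin antagonist follistatin (Fst) had 166 and 134 against 506 and 462 CPM (-1.69 ± 0.25). The 3 genes were also lower in luminal cells, by 3.10, 0.86 and 2.29. Of the rises, Ltbp1, which holds latent TGF-beta in the matrix, had a change of 1.22.

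Of the targets and partners of YAP and TEAD 4 of 18 were higher and 5 lower, beside 15.7% and 17.4% of all genes. Ccn2 (-2.01), given above with the matrix genes, is not in this list. In luminal cells 13 were lower and none higher, beside 24.6% and 23.7% of all genes there. Without the first pregnant library 1 was higher and 3 were lower, without the first lactating library 2 were higher, and in fits of the 6 or the 4 basal libraries alone 7 were higher. The tissue factor gene F3 and the kinase Nuak2 fell by 1.52 ± 0.29 and 1.67 ± 0.20 in basal cells. In the WNT list 5 of 31 were higher and 6 lower, near the shares of all genes (15.7% and 17.4%), with 2 higher when the second lactating or the first pregnant library was left out. Wnt4, a progesterone-induced ligand in luminal cells, rose by 0.93 ± 0.19 in basal and fell by 1.2 in luminal cells. Tcf7 fell by 1.14 ± 0.15 and Rspo1 by 1.69 ± 0.31, and the luminal share would supply 40.7% of the Rspo1 level, whose change after subtraction was -0.96 (adjusted p = 0.102). Of 17 Notch genes 2 rose and 2 fell, beside 15.7% and 17.4% of all genes. Notch2 and Notch1, both receptors, had changes of 0.45 and -0.58 and lost their calls without the first lactating (0.40 and -0.33, adjusted p = 0.085 and 0.108) or the first pregnant library (0.38 and -0.44, adjusted p = 0.114 and 0.116). The nuclear effector Rbpj fell by 0.71 ± 0.11.

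Cytokine genes were mostly lower in lactation, with 15 of 27 lower and 3 higher and a median of -1.26, and 9 lower without the second lactating library. Beside this list, 17.4% of all genes were lower and 15.7% higher. Macrophage colony-stimulating factor (Csf1), which maintains macrophages, had 114 and 92.2 CPM in lactating and 727 and 736 CPM in pregnant basal libraries, a change of -2.83 ± 0.23 (edgeR adjusted p = 1.1e-05). The monocyte attractant Ccl2 had 68.7 and 52.9 against 207 and 200 CPM (-1.74 ± 0.26). The neutrophil attractant Cxcl2 fell by 2.10. The chemokine Cxcl14 went the other way, with 4356 and 4454 CPM in lactating and 795 and 1356 CPM in pregnant libraries (2.03 ± 0.26). Tnfrsf11b (osteoprotegerin), the decoy receptor for RANKL, rose by 1.87.

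Leukocyte markers moved with this group, again beside 17.4% of all genes lower and 15.7% higher. Their summed level was 10.9 and 9.61 CPM in lactating and 16.9 and 19.8 CPM in pregnant libraries, and 5 of the 8 tested fell while Cd68 rose by 0.46, a call lost without any 1 of the 4 libraries (adjusted p = 0.0512 to 0.222). Without the second lactating library 3 markers fell. Csf1r, the receptor for Csf1 on macrophages, had 0.269 and 0 CPM in lactating and 2.77 and 2.06 CPM in pregnant libraries, and Laptm5 had 0.269 and 0.184 against 1.44 and 1.52 CPM. The antigen presentation genes Cd74 and H2-Aa fell by 2.83 ± 0.46 and 2.30 ± 0.43. Without the first lactating library the changes were -3.70 for Cd74, -3.28 for H2-Aa and -8.81 for Csf1r, the last a fitted value with the remaining lactating library at 0, and without the second that of Csf1r was -3.14. The T and B cell markers Cd3e and Cd79a lay below 1 CPM in all 4 libraries. The part of leukocytes in the cytokine changes was not tested.

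Growth factor genes showed 11 of 37 higher and 10 lower, beside 15.7% and 17.4% of all genes. The ligand Hbegf fell, with 31.0 and 31.0 CPM in lactating and 117 and 118 CPM in pregnant libraries (-1.92 ± 0.23), and Dusp4, a feedback phosphatase of the ERK pathway, fell by 1.15. The insulin receptor substrate Irs1 rose by 0.93 and the IGF-II receptor Igf2r by 0.87. Egf rose by 1.53 ± 0.28 at levels below 2 CPM, the luminal share would supply 40.0% of it, and after subtraction the change was 1.00 (adjusted p = 0.0549). Without the second lactating or the first pregnant library the list had 7 and 6 rises, and without the second lactating library 6 falls. In the prolactin and STAT5 list 5 of 13 were higher and 3 lower, led by the LIF receptor Lifr with 376 and 429 against 168 and 259 CPM (0.91 ± 0.20, and 0.63 with adjusted p = 0.0523 without the first pregnant library, when 2 of the list rose and none fell). Prlr itself had 1.48 and 0.874 against 2.88 and 1.90 CPM, no more than the luminal share would supply (110%). Vegfa, the angiogenic factor, had 213 and 166 CPM in lactating and 640 and 664 CPM in pregnant libraries, a change of -1.78 ± 0.16.

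Of the axon guidance genes, which also shape mammary ducts, 5 of 30 were higher and 8 lower, beside 15.7% and 17.4% of all genes. Netrin 4 (Ntn4) had 33.1 and 39.6 CPM in lactating and 5.68 and 14.3 CPM in pregnant libraries (1.87 ± 0.32, and 2.67 without the second pregnant library), and Slit3 had 221 and 226 against 83.2 and 94.6 CPM (1.33 ± 0.11). Robo2, a SLIT receptor, fell by 2.15 ± 0.33 in basal and rose by 2.62 in luminal cells, there from a mean of 0.213 to 1.33 CPM. The falls numbered 4 without the first and 2 without the second lactating library and 3 without the second pregnant one.

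Sterol synthesis genes were higher in lactating basal cells, with 19 of 24 higher and none lower and a median of 1.18, where 15.7% of all genes were higher. Their summed level was 2585 and 2208 CPM in lactating and 1232 and 1231 CPM in pregnant libraries. Methylsterol monooxygenase (Msmo1) had 65.4 and 48.7 against 14.9 and 12.8 CPM, a change of 2.04 ± 0.17 (edgeR adjusted p = 1.3e-05). The synthase Hmgcs1, at the start of the pathway, had 286 and 255 against 105 and 91.5 CPM (1.46 ± 0.15). The stages did not overlap for either gene. Fdps rose by 1.8 ± 0.19, although 26.7% of its exon length overlaps another annotated gene, and Idi1 by 1.71 ± 0.22. In luminal cells 22 of the 24 were higher (median 1.77), beside 23.7% of all genes there. The basal levels of Hmgcs1 in both stages were above the luminal means of 141 CPM in lactation and 44.3 CPM in pregnancy.

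The Hmgcs1 start region is shown because the sterol regulatory element, bound by SREBP, is known for this gene. It lies on the plus strand at chr13:119690201-119690350 in GRCm38.p6 (RefSeq), 150 bases before the start. Capitals mark the sterol element TCACNCCAC, here with N as C, and CCAAT as its complement ATTGG.
Hmgcs1: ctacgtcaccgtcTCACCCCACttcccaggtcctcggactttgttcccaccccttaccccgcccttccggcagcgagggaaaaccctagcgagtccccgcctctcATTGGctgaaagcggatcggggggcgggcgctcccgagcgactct
Of 16 cholesterol genes with a promoter, 15 held CCAAT (37.9% of all) and only Hmgcs1 held TCACNCCAC (1.2% of all) in the 300-base window, counting both strands.

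Milk fat synthesis genes behaved unlike those of luminal cells. Over all genes 15.7% were higher and 17.4% lower in basal cells, 23.7% were higher in luminal cells, and the difference passed for 36.2%. In basal libraries 7 of 26 were higher and none lower, with a median of 0.03, and 4 were higher without the second lactating library, whereas 24 of 26 were higher in luminal cells and the difference passed for 24. The desaturase Scd1 had 270 and 272 CPM in lactating and 154 and 112 CPM in pregnant basal libraries (1.02 ± 0.17), and the luminal share would supply 44.4% of its level. The elongase Elovl6 rose by 0.90 ± 0.14, with a luminal share of 3.15%. In the milk fat globule list Plin2, which coats lipid droplets, had 41.2 and 44.6 against 137 and 132 CPM (-1.65 ± 0.27), the luminal share would supply 61.5% of it, and after subtraction the change was -0.64 (adjusted p = 0.165).

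Genes of mitochondrial respiration were modestly lower in basal cells and higher in luminal cells. Of 28 oxidative phosphorylation genes 18 fell and 1 rose in basal cells (median -0.41), beside 17.4% and 15.7% of all genes. In luminal cells 23 were higher and 1 lower, beside 23.7% and 24.6% of all genes. The difference passed for 26, against 36.2% of all genes. The ATP synthase subunit Atp5b had 801 and 695 CPM in lactating and 1279 and 1235 CPM in pregnant basal libraries, a change of -0.75 ± 0.12. The gene that rose was the mitochondrial coactivator Ppargc1a, with 42.9 and 40.1 against 19.9 and 23.2 CPM (0.94 ± 0.23). Its call was lost without the first lactating (0.89, adjusted p = 0.0557) or the first pregnant library (0.83, adjusted p = 0.0775). The falls of the list numbered 9 without the second lactating library.

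Glycolysis genes were also lower, 12 of 23 with 1 higher, and 6 and 7 were lower without the second lactating or the first pregnant library. Hexokinase 2 (Hk2) had 75.7 and 59.5 CPM in lactating and 114 and 116 CPM in pregnant libraries (-0.77 ± 0.12) and rose by 1.26 in luminal cells. Enolase (Eno1) fell by 0.89 ± 0.13. The glycolysis counts stand beside 17.4% of all genes lower and 15.7% higher. Cytosolic ribosomal protein genes fell in both cell types, 27 of 30 in basal and 28 of 30 in luminal cells, beside 17.4% and 24.6% of all genes. The difference passed for 3, against 36.2% of all genes. Their basal sum was 4369 and 4093 CPM in lactating and 6685 and 6462 CPM in pregnant libraries. Rplp1, of the ribosomal stalk, had 191 and 177 against 409 and 363 CPM (-1.07 ± 0.11). Ribosomal protein genes have many near-identical pseudogenes, so that the reads assigned to each are uncertain.

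The ATF4 list, which covers amino acid supply and its stress response, had 10 of 20 lower and 3 higher, and 6 lower and 1 higher without the first pregnant library. The serine synthesis enzyme Psat1 had 54.6 and 57.5 CPM in lactating and 160 and 125 CPM in pregnant libraries (-1.35 ± 0.16), and the amino acid transporter Slc7a5 had 151 and 143 against 294 and 327 CPM (-1.08 ± 0.11). The hormone Fgf21 had 0.0897 and 0.0920 against 4.91 and 3.21 CPM (-5.40 ± 0.73), a size that rests on a few counts in lactation. Atf3, a transcription factor of the same response that is also an immediate early gene and is counted again in that list, rose, with 2115 and 2262 against 559 and 634 CPM (1.88 ± 0.20). In the ER protein folding list 7 of 20 fell and 2 rose, and 4, 2 and 2 fell without the first lactating, the second lactating and the first pregnant library. Atf6, a sensor of misfolded protein, had 71.0 and 59.2 against 120 and 124 CPM (-0.90 ± 0.13). The counts of the ATF4 and the ER list stand beside 17.4% of all genes lower and 15.7% higher.

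In the list of nuclear receptors and their targets 9 of 16 were higher and 3 lower (15.7% and 17.4% of all genes), with a median of 0.60. The lower genes numbered 1 without the first lactating, the second lactating or the first pregnant library. The mineralocorticoid receptor (Nr3c2) had 51.4 and 44.8 CPM in lactating and 24.3 and 21.5 CPM in pregnant basal libraries (1.07 ± 0.17) and fell by 0.84 in luminal cells. The thyroid hormone receptors Thrb and Thra rose by 1.04 ± 0.18 and 0.71. The retinoic acid receptor Rarb rose by 1.43 ± 0.24, and 38.4% of its exon length overlaps other genes. Tsc22d3, a glucocorticoid target, rose by 0.64.

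Clock genes included large single changes. Nr1d1 (REV-ERB alpha), a repressor within the clock, had 38.1 and 33.5 CPM in lactating and 208 and 145 CPM in pregnant libraries, a change of -2.30 ± 0.18 (edgeR adjusted p = 8.4e-06), and in luminal cells its change of -0.12 did not pass. Bhlhe41 had 71.3 and 54.0 against 193 and 238 CPM (-1.78 ± 0.15). Arntl (BMAL1), which Nr1d1 represses, rose by 0.77. Of the 18 clock genes 5 fell and 2 rose, and 3 fell without the second lactating or the first pregnant library. The clock counts stand beside 17.4% of all genes lower and 15.7% higher. The hour of collection is not given in the sources used here, and stage and hour cannot be told apart.

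Among 15 genes of the BCL2 family, which decides between survival and apoptosis, 2 rose and 4 fell (15.7% and 17.4% of all genes). The killer gene Bbc3 (PUMA) had 5.38 and 8.83 CPM in lactating and 39.0 and 41.1 CPM in pregnant libraries (-2.50 ± 0.20). The killer gene Bcl2l11 (BIM) had 169 and 158 against 98.8 and 92.5 CPM (0.77 ± 0.12) and fell by 1.31 in luminal cells. Mcl1, a survival factor, had 564 and 571 against 587 and 546 CPM, a change of 0.00 ± 0.13 that did not pass. Without the first lactating library 1 member fell, and without the first pregnant library 2 fell.

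Immediate early genes, which respond within minutes to stimuli and to tissue dissociation, had 13 of 24 higher and none lower (15.7% and 17.4% of all genes). Their median was 0.62. Klf2 had 119 and 182 CPM in lactating and 38.6 and 41.4 CPM in pregnant libraries (1.91 ± 0.21). Egr1 had 3052 and 6107 against 1681 and 1633 CPM (1.47 ± 0.33), and Fos had 3847 and 6509 against 2243 and 2360 CPM (1.17 ± 0.28). The second lactating library was the highest for each of these 3. Without it the change of Egr1 was 0.88 (adjusted p = 0.0836) and that of Fos 0.74 (adjusted p = 0.108), and 5 genes of the list rose. Without the first pregnant library the change of Fos was 1.13 (adjusted p = 0.0595) and 6 genes rose. The part of dissociation in these changes was not tested.

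Interferon and antigen presentation genes had 7 of 26 higher and 4 lower, beside 15.7% and 17.4% of all genes. Ifit1 had 6.59 and 3.04 CPM in lactating and 1.88 and 1.52 CPM in pregnant libraries (1.49 ± 0.38), and lost its call without the first lactating (0.82, adjusted p = 0.15) or the second pregnant library (1.35, adjusted p = 0.058). Without the first lactating library 3 genes of the list rose.

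Markers of other cells in the gland were checked as whole lists, where 15.7% of all genes tested were higher and 17.4% lower. Endothelial markers summed to 169 and 208 CPM in lactating and 165 and 211 CPM in pregnant libraries, and 2 of 13 rose, Kdr (1.15 ± 0.22) and Egfl7 (0.96 ± 0.32, not called without the second lactating library at 0.53, adjusted p = 0.338, or the first pregnant one at 0.73, adjusted p = 0.222). Of 8 pericyte markers none passed at the adjusted p in edgeR, with values between -0.20 and 0.81. Of 7 adipocyte markers tested 2 were higher and 2 lower, with none higher when the second lactating or the first pregnant library was left out, and leptin (Lep) varied between replicates, with 58.6 and 40.7 against 14.5 and 62.6 CPM. Of 6 Schwann and neural markers 1, Mbp, fell by 1.39 ± 0.20, and of 4 erythroid markers none passed. Of 8 skeletal muscle markers 3 rose, Tnni2 together with Ckm and Myh1, which stayed below 1 CPM in every library. Ckm and Myh1 both lost their calls without the second lactating library. With DESeq2 and with the stricter filter on low counts 1 marker of the list rose. Muscle actin Acta1 had 9.41 and 10.1 against 4.95 and 12.6 CPM. Of 13 hormone-sensing luminal genes 2 rose and 3 fell, and 1 of each without the second lactating library.

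**Figure D4:**
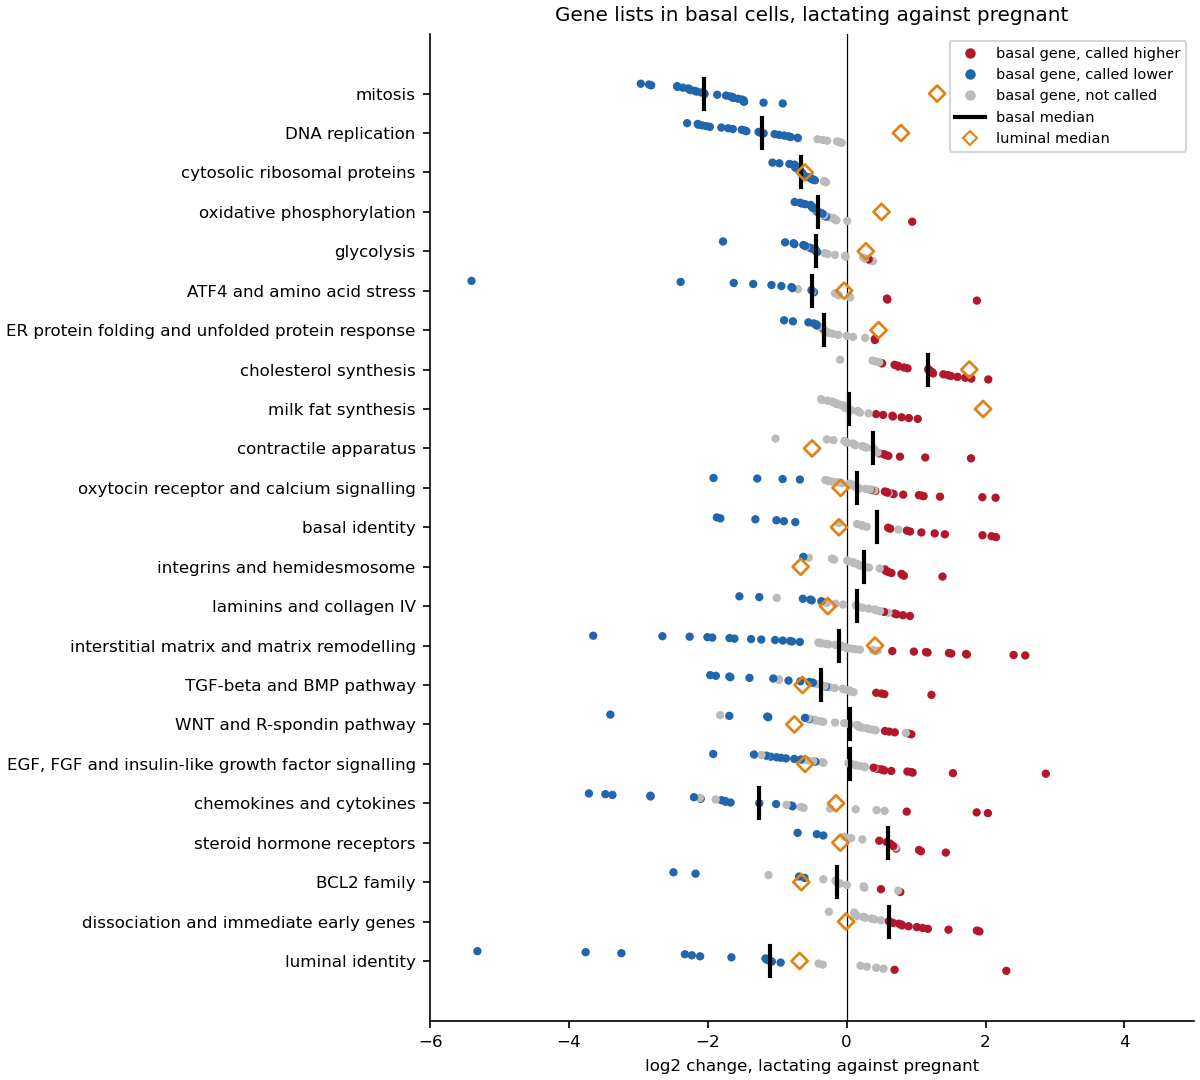
Log2 change in lactating against pregnant basal cells for the genes of 23 lists. Each dot is a gene (red, called higher; blue, called lower; grey, not called), the black bar is the median in basal cells and the orange diamond the median in luminal cells. Cholesterol synthesis has its dots mostly to the right and mitosis and DNA replication to the left, with the luminal medians of the last 2 on the opposite side of 0.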

How the data were processed

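Raw read counts per Entrez gene and library for 27179 genes were deposited by the authors, with no normalisation. The submitters' processing notes list CASAVA 1.8.2, Subread 1.4.4 and featureCounts as tools, with GRCm38 and mm10 as builds. How strand and multi-mapping reads were treated is not given in the sources used here, so overlapping genes and near-identical copies are uncertain. Symbols and coordinates came from RefSeq (GRCm38.p6), and 25275 identifiers matched. The other identifiers held 0.539% to 1.37% of a library's counts and stayed in the tests. The deposited table and the 12 single-library files differed in 0 counts.

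Genes were kept by filterByExpr (minimum count 10, by group). edgeR 4.0.16 in R 4.3.3 fitted 6 group means over all 12 libraries with TMM factors, tested lactating minus pregnant by the quasi-likelihood F-test, and adjusted over all genes by Benjamini-Hochberg, with calls at 0.05. The SE of a change is its size over the root of F. The luminal share of a basal library is its milk protein share of the counts over the luminal mean of the same stage. The script was tested on simulated data. Intervals cover counting error only, since no molecular identifiers separate PCR copies from molecules.

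The members and gene lists were chosen with earlier results of these data known. The genes named are the 12 largest rises and falls with a luminal share under 10% and at least 5 CPM, 5 each with a share of 50% or more, up to 3 of each list, and a further 12 by name. A few genes that meet the rule are not reported here. Others were named after their values were seen: among them Krt19, Wif1, Lgr5, Col17a1, Nrg1, Dkk3, Ccn2, Fbln2, Adamts18, Tnc, Col4a1, Hspg2, Itgb4, Cxcl14, Ccl2, Hmgcs1, Cdk1, Ccnb2, Fos, Ppp1r12a, Kcnma1, Cdh1, Epcam, Slc7a5, Psat1, Rrm2 and Cd68, and every gene given with a change and no SE. The labels number libraries 1 and 2 in every group. Deviations of same-numbered libraries correlated over 9197 genes at -0.057 between the 2 basal stages, so there the numbers are only names. Between luminal and basal libraries of a stage they correlated at 0.156 in lactating, 0.325 in pregnant and 0.251 in virgin mice, where the numbers may mark pairs. Between stages, where mice differ, virgin basal libraries gave -0.250 with lactating and 0.136 with pregnant basal libraries. Values of that size therefore do not show pairs. The 6 group means were fitted without pairs, and pairs within a stage entered only an alternative added after the data were seen. Alternatives were DESeq2 1.42.0, other scalings and filters, fewer libraries, subtraction of the luminal share, each library left out and a replicate block.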

Additional observations from a re-analysis of the deposited data

Results flagged for a closer look

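For 30 of the named genes the lactation change was called in both cell types with opposite signs and the difference passed the interaction test. Over all genes 1092 did so. The values are the luminal minus the basal log2 change. Cell type and sequencing lane cannot be told apart in them. RNA carried from basal cells into luminal libraries was not estimated.

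The luminal change lay below the basal change for H19 (-9.51), Vtcn1 (-4.49), Oxtr (-3.06), Itgb8 (-2.72), Ppargc1a (-2.52), Krt8 (-2.44), Plec (-2.26), Wnt4 (-2.13), Bcl2l11 (-2.08), Nr3c2 (-1.91), Notch2 (-1.61) and Mrtfb (-1.16). These genes were higher in lactating than in pregnant basal cells and lower in lactating than in pregnant luminal cells. The size for H19 is uncertain, since the lactating luminal libraries had 0.229 and 0 CPM of it.

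The opposite direction was found for genes of cell division and DNA replication, with differences of 5.10 for Pclaf, 4.67 for Pbk, 4.35 for Bub1, 3.84 for Aurkb, 3.56 for Tk1, 3.52 for Mki67 and 2.84 for Mcm2. It was also found for Robo2 (4.77), Sfrp2 (4.68), Col9a1 (4.18), Laptm5 (3.99), Fgg (3.67), Hk2 (2.03), Atp5o (1.65), Atp5b (1.25) and Pdia6 (0.97). Luminal levels were near the floor for Robo2, with means of 1.33 CPM in lactation and 0.213 CPM in pregnancy. For Laptm5, a leukocyte marker, they were 0.647 and 0.258 CPM. Exons of Atp5o overlap other genes over 43.8% of their length. For Btn1a1 (2.81) and Prlr (2.54) the luminal share would supply 92.9% and 110% of the basal level in pregnancy, so their basal falls cannot be read as basal changes. The basal fall of Fgg lost its call in edgeR without the second lactating library (-0.69, adjusted p = 0.118) and without the second pregnant one (-0.66, adjusted p = 0.0862).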

How the results depend on the processing

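Of the 135 named genes called, 101 kept their call under every alternative and 34 lost it under at least 1. Of 60 further called genes chosen after their values were seen, 24 lost it under at least 1. The count of 5287 changed genes was 4919 with DESeq2, 4975 with library size scaling alone and 5410 with the 4 libraries alone. Leaving out 1 library gave 2735 to 4354 calls, 1146 to 1996 higher and 1505 to 2358 lower. The numbers 1 and 2 do not pair the basal stages, and the replicate block gave 5393 calls (2568 higher, 2825 lower). A replicate block within each stage, chosen after seeing the data, gave 6213, and changed no named gene's call. Under it the higher genes numbered 11 in the contractile list (7 without it), 10 in laminins and collagen IV (5), 7 in YAP and TEAD (4), 8 in axon guidance (5), 4 in luminal identity (2), 4 in adipocyte (2) and 2 in pericyte markers (0). The lower genes numbered 11 in ER folding (7), 8 in the clock (5), 6 in fibroblast (3), 5 in hormone-sensing luminal (3), 2 in milk fat synthesis (0) and 2 in endothelial markers (0).

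The luminal share was 1.17% and 1.16% in lactating libraries by the median over milk genes. By luminal identity genes, some of which basal cells express themselves, it was 49.1% and 44.1% in lactating and 14.6% in both pregnant libraries. With the share subtracted, Lao1 (-7.06, but 0.000 by the median) and Cidea (-7.05, or -6.84 by the median) changed sign, and so did Krt18 (0.66 and 0.78). Changes near 0 changed sign: Mcl1 gave -0.046 with library size scaling, -5e-04 with the 6 basal libraries, -0.012 with 4 libraries and -0.052 to 0.054 without single libraries. Without single libraries Acta2 gave -0.047 to 0.28, Krt14 -0.29 to 0.085 and Csn2 -0.567 to 0.048. Where no value above shows a cause, the cause was not tested. Depth limits genes below 1 CPM, such as Muc4 in lactation, to a few counts.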

Other observations

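Tnni2 and H19 lie 131119 bases apart on chromosome 7 (GRCm38.p6) and both rose. Between them lie Lsp1, which averaged 4.69 CPM in lactating and 1.72 CPM in pregnant libraries (1.45 ± 0.34 in edgeR, lost without the first lactating or the first pregnant library), and Mrpl23, which did not pass (-0.26 ± 0.17). Syt8, on the other side of Tnni2, averaged 0.657 CPM in lactating and 0.775 CPM in pregnant libraries and did not pass. H19 rose by 3.10 in basal and fell by 6.42 in luminal cells, where the lactating libraries had 0.229 and 0 CPM.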
